A study of Rattus norvegicus with 2 samples.

Results

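The complement components described here are 9 genes of the blood's complement system measured in rat liver: C1qa, C1qb, C1qc, C3, C4bpa, C6, C9, Cfb and Cfi. They were taken by gene name from the non-control spots of the array, where 11 of the 41012 gene probes carry one of these names, and they are 9 of 33719 gene names on the array and of 18196 genes that could be tested. All 9 passed the filter on dim probes, and each probe was well above background in both diets. The labels describe liver total RNA of Wister rats (so spelled there, presumably Wistar), 7 weeks old, fed a choline-deficient diet or a control diet for 10 days. The titles speak of 4 rats. Each of the 2 samples is a two-colour Agilent array that carries both diets. On array 1 the choline-deficient RNA was labelled with Cy5 and the control RNA with Cy3, and on array 2 the dyes were exchanged. The labels do not say how many rats stand behind a channel, whether RNA was pooled, or whether the arrays hold different rats. Every limma p-value here thus rests on differences between these 2 arrays, which may be technical variation. The spread behind it is taken mostly from all genes together and only slightly from the gene itself. The labels name no genetic alteration and no agent other than the diet.

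Complement is a cascade of plasma proteins that coats and kills microbes and clears debris. In the classical pathway C1q, a bundle of collagen-like stalks with globular heads built from the A, B and C chains, binds its target and starts the cleavage of C4, C2 and C3. In the alternative pathway C3 and factor B form the cleaving enzyme, and in the terminal pathway C6 and C9 join the pore that opens membranes. C4b-binding protein and factor I switch the enzymes off. The liver is the main source of most of these proteins, which hepatocytes secrete, whereas the C1q chains are made mainly by macrophages, in liver the Kupffer cells. C3 and factor B are made by other cells too, so the split into macrophage and hepatocyte products is a convention here and not something the arrays show.

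The probes tell which stretch of each transcript was read, and those of the C1q chains are shown because 2 of the 3 chains were read at a pair of places. All coordinates of probes are those of the rat build rn4 in the file headers. The C1q genes lie together on chromosome 5, their probes starting within 15231 bases on the minus strand. In the current rat annotation (GRCr8) no other protein-coding gene stands between C1qa and C1qc, or between C1qb and C1qc. The first C1qc probe below (chr5:155658964-155659023) comes from the collagen-like stalk: its 7 capital triplets are glycine codons that recur every 9 bases. The second (chr5:155656638-155656697) lies 2326 bases away by start and represents the gene in the tests. The C1qa probes (chr5:155662578-155662637, which represents the gene, and chr5:155662767-155662826) start 189 bases apart. The C1qb probe lies at chr5:155647536-155647595.
C1qc, stalk probe: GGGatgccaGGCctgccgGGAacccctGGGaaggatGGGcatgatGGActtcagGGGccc
C1qc, second probe: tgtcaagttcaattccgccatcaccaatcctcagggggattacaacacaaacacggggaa
C1qa, first probe: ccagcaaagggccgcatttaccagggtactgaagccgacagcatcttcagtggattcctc
C1qa, second probe: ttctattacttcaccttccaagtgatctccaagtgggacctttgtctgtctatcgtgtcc

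The other 6 genes had 1 probe each. C4bpa was read at chr13:43553086-43553145 on the minus strand, C6 at chr2:53764375-53764434 and Cfi at chr2:227324985-227325044, both on the plus strand. The C9 probe is spread over chr2:55784980-55789922, a span of 4943 bases for 60 bases of probe, so it joins pieces of transcript that an intron separates in the genome. The Cfb probe spans 144 bases at chr20:4076976-4077119 in the same way. C3 was placed on the unassigned sequence of rn4 (chrUn:64513437-64513496). The probes of C3 and of Cfb are shown as examples of the hepatocyte-made group: C3 had the widest spread between arrays, and the Cfb probe, like that of C9, crosses a splice junction.
C3: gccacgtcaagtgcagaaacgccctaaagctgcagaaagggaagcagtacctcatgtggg
Cfb: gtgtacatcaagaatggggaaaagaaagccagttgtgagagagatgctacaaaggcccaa

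Promoter windows of 250 bases before the gene start were matched in RefSeq (GRCr8) for 6 of the 9 genes. C1qc, C9 and Cfb had no entry. Shown are a pair from each group. Capitals in C1qa (chr5:154419934-154420183, minus strand) and C1qb (chr5:154407828-154408077, minus strand) mark GGAAGT, the core bound by ETS factors such as PU.1 of macrophages. Capitals in C3 (chr9:2201340-2201589, minus strand) and C4bpa (chr13:44663472-44663721, minus strand) mark TTNNGNAA, a loose form of the site of C/EBP factors of hepatocytes. Both motifs were searched on both strands, and they were chosen after the sequences had been seen.
C1qa promoter: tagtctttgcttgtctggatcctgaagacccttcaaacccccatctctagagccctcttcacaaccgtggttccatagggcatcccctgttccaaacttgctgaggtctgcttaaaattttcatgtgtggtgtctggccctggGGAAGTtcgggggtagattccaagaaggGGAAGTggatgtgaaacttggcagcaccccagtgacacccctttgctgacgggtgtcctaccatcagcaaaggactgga
C1qb promoter: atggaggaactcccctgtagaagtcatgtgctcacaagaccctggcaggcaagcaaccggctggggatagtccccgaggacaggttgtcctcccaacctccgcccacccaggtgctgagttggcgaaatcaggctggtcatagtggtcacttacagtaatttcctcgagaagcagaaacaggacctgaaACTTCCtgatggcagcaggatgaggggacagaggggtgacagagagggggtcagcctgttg
C3 promoter: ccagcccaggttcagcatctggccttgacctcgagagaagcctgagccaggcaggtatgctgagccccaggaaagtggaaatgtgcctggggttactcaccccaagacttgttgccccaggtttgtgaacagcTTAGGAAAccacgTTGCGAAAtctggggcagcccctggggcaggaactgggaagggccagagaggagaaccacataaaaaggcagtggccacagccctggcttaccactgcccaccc
C4bpa promoter: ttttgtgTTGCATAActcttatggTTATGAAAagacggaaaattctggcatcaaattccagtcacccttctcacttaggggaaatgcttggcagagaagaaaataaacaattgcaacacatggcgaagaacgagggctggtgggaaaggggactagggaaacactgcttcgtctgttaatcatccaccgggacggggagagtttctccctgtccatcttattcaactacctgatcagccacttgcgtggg

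GGAAGT was found in the windows of C1qa and C1qb, 2 of the 6, against 19.2% of 33469 rat promoter windows of the same length. TTNNGNAA was found in C3, C4bpa and C6, 3 of the 6, against 37.2% of those windows. In C3 the TTGCGAAA at 104 to 97 bases before the start reads as a match on both strands. A match describes letters only, and neither diet's data bear on whether a factor sits there.

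The C1q chains were measured in the choline-deficient and the control channel of each array, and none of the 3 passed the test. Values are given as normalized log2 levels per channel, which serve to compare diets within a gene and not genes with each other. C1qa, the A chain, had levels of 12.05 and 11.80 in choline-deficient liver (arrays 1 and 2), against 12.17 and 12.10 in control liver. Both choline-deficient values lay below both control values. The log2 ratio of choline-deficient over control was -0.12 on array 1 and -0.30 on array 2, a mean of -0.21 ± 0.12 (SD, n = 2 arrays; limma adjusted p = 0.263 over all 18196 genes). Its second probe had ratios of -0.03 and -0.16.

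C1qb, the B chain, had levels of 13.49 and 13.65 in choline-deficient liver, against 13.78 and 13.58 in control liver. The diets overlapped, and the arrays disagreed in sign: the log2 ratio was -0.29 on array 1 and 0.07 on array 2 (mean -0.11 ± 0.26, SD, n = 2; limma adjusted p = 0.741). C1qc, the C chain, had levels of 9.58 and 9.55 in choline-deficient liver, against 9.69 and 9.72 in control liver, with no overlap. Its log2 ratios were -0.11 and -0.18 (mean -0.14 ± 0.05, SD, n = 2; limma adjusted p = 0.575). The stalk probe of C1qc gave ratios of -0.15 and -0.02 (mean -0.085), so both places of the transcript showed a small ratio below 0 on both arrays, though with median centring in place of loess C1qc stood at 0.03.

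**Figure D1:**
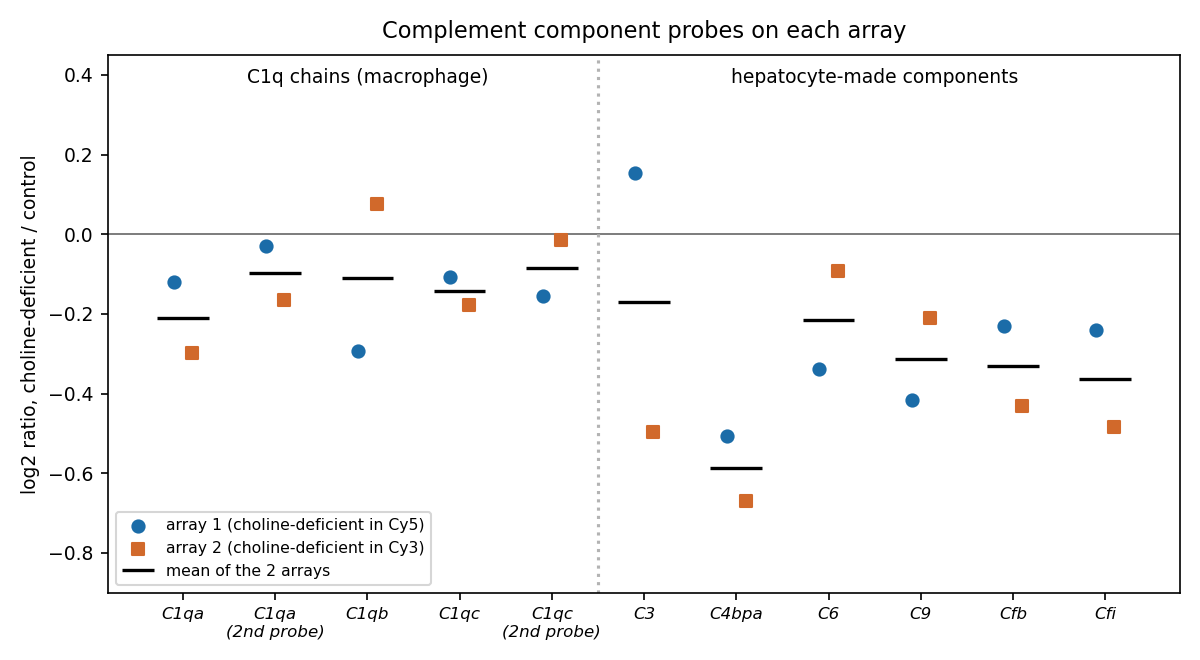
Log2 ratio of choline-deficient over control liver (vertical axis) for each of the 11 probes (horizontal axis), with circles for array 1, squares for array 2 and a bar for their mean. Of the 9 genes, C3 and C1qb have a point on each side of 0, and C4bpa lies lowest on both arrays, at -0.51 and -0.67.

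Among the hepatocyte-made components 4 of 6 fell in choline-deficient liver: C4bpa, Cfi, Cfb and C9. No component rose. Of all 18196 genes, 4.25% were called lower and 4.37% higher at an adjusted p under 0.05 (8.62% in either direction). Among the 1659 genes at least as bright as C6, the dimmest of the 6, 12.6% were called lower. The 9 genes were listed with earlier results of these data known, so their count of 4 is a description beside these shares. At an unadjusted p under 0.05, 6 of the 9 were lower, a threshold that 3195 of the 18196 genes passed in either direction.

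The regulators C4bpa and Cfi showed the lowest mean ratios of the 9. On each array C4bpa was the lowest, whereas C9, C6 and C1qb lay below Cfi on array 1 and C3 did on array 2. C4bpa encodes the alpha chain of C4b-binding protein, which takes apart the C3-cleaving enzyme of the classical and lectin pathways. Its levels were 15.21 and 15.08 in choline-deficient liver, against 15.71 and 15.75 in control liver. Both choline-deficient values lay clearly below both control values. The log2 ratio was -0.51 on array 1 and -0.67 on array 2, so the RNA fell by 0.59 ± 0.12 on the log2 scale (SD, n = 2; limma adjusted p = 1.283e-05), to 0.665 of the control level. A lower ratio was found in 0.77% of the genes tested. The authors' deposited table, whose p-values come from an error model within 1 array, gives p = 0.01449 on array 1 and 0.004891 on array 2 for this probe. By that error model, p on arrays 1 and 2 was 0.06928 and 0.07768 for Cfi, and 0.06561 and 0.1031 for Cfb. For C9 it was 0.03139 and 0.3667.

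Cfi encodes factor I, the protease that cuts C3b and C4b with the help of cofactors such as C4b-binding protein. Cfi had levels of 16.04 and 15.84 in choline-deficient liver, against 16.28 and 16.32 in control liver. Both choline-deficient values lay below both control values. Its log2 ratios were -0.24 and -0.48 (mean -0.36 ± 0.17, SD, n = 2; limma adjusted p = 0.0125).

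Cfb and C3 build the enzyme of the alternative pathway, and C3 is also the point at which all pathways meet. Cfb, which encodes factor B, had levels of 14.61 and 14.39 in choline-deficient liver, against 14.84 and 14.82 in control liver, without overlap. Its log2 ratios were -0.23 and -0.43 (mean -0.33 ± 0.14, SD, n = 2; limma adjusted p = 0.0263). C3 had levels of 16.73 and 16.38 in choline-deficient liver, against 16.58 and 16.88 in control liver. These overlap, and C3 is the only one of the 6 whose arrays had opposite signs, 0.15 on array 1 and -0.50 on array 2 (mean -0.17 ± 0.46, SD, n = 2; limma adjusted p = 0.487). Its spread between arrays is the widest of the 9 genes.

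C9 and C6 are terminal components: C6 joins the growing complex early, and C9 polymerises into the pore. C9 had levels of 14.79 and 14.83 in choline-deficient liver, against 15.20 and 15.04 in control liver, without overlap. Its log2 ratios were -0.42 and -0.21 (mean -0.31 ± 0.15, SD, n = 2; limma adjusted p = 0.03996), so C9 passed by a small margin. C6 had levels of 12.19 and 12.52 in choline-deficient liver, against 12.52 and 12.61 in control liver. The choline-deficient value of array 2 all but met the control value of array 1. C6 did not pass, with ratios of -0.34 and -0.09 (mean -0.22 ± 0.17, SD, n = 2; limma adjusted p = 0.245).

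**Figure D2:**
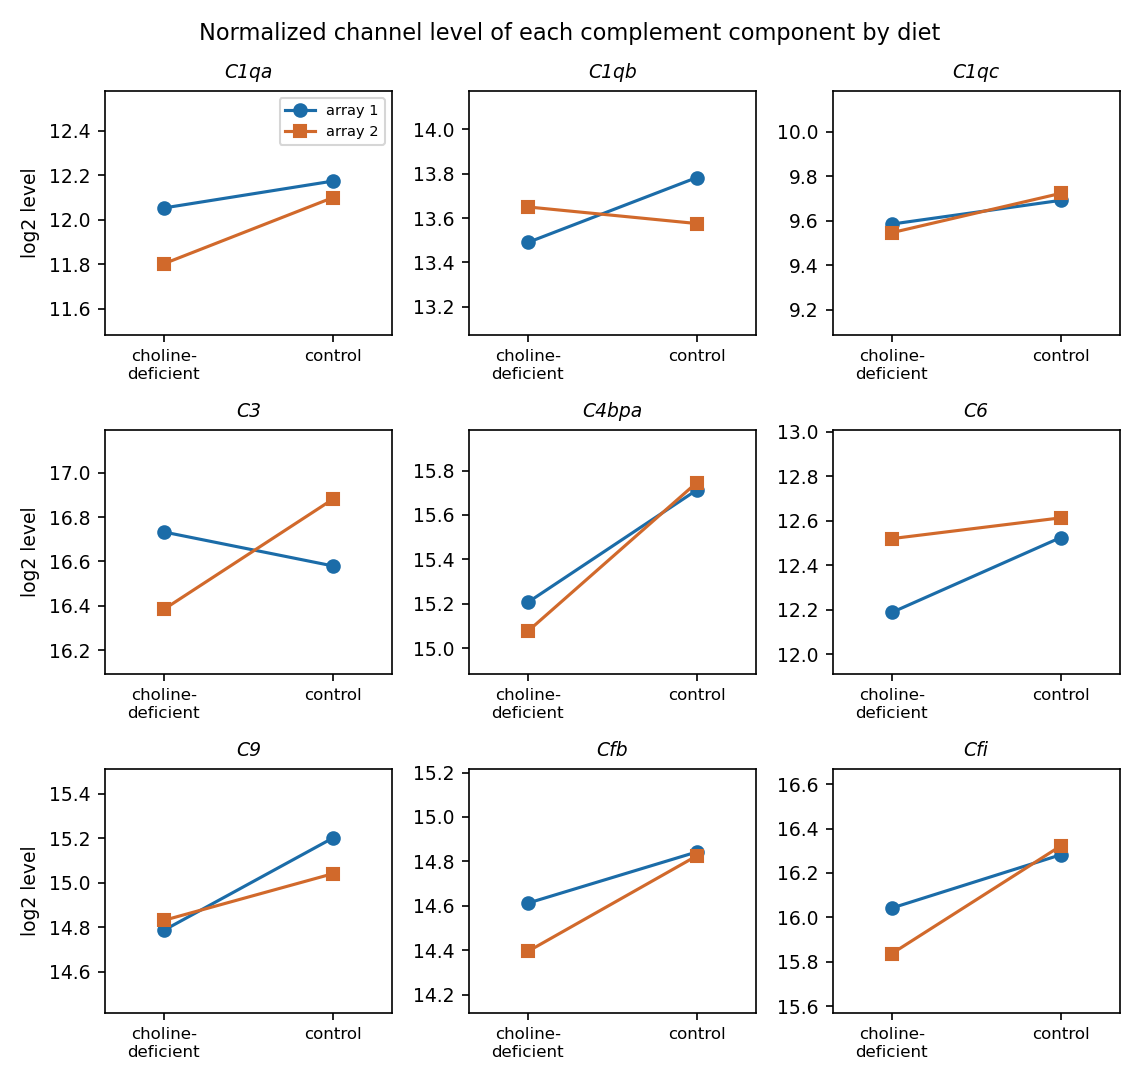
Normalized log2 channel level (vertical axes, each of the same height in log2 units but a different range) of the representing probe of each gene in choline-deficient and control liver, 1 line per array. The lines of C1qb and C3 slope in opposite directions on the 2 arrays, and those of the other 7 genes are lower in choline-deficient liver on both.

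Raw mean signals of the 11 probes ran from 267.5 to 210383, against local backgrounds of 41.5 to 56.5, and no spot was flagged as saturated. Raw signals carry a strong dye effect: the C4bpa probe read 61290 and 22600 in choline-deficient liver, against 30580 and 91300 in control liver, so the Cy5 channel was the brighter one on both arrays before normalization. Each diet therefore has 1 reading in each dye, and the dye effect that normalization leaves behind counts as spread between arrays. That spread of a gene hardly entered its limma p-value. The standard error of the fit was 0.1089 for C3 and 0.1012 for C1qc, whose SDs between arrays were 0.4586 and 0.0496. The SD among 10 spots of a probe on 1 array had a median of 0.0612 and 0.0515 (169 probes), below the SD between arrays of every gene but C1qc. The number of arrays, 2, limits the precision.

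The calls on the smaller changes depend on the processing, and C4bpa held best. C4bpa passed in 6 of 8 alternatives, Cfi in 4, Cfb in 3 and C9 in 1. Calls ended for all 4 with median centring in place of loess and with the authors' deposited log ratio, settings in which no gene of the array passed. With median centring, 7 of the 9 genes stayed below 0, and C1qb (0.07) and C1qc (0.03) stood above 0, against 0.08 for the median gene. In that setting the dye effect was not removed: C3 read 1.69 on array 1 and -1.72 on array 2.

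**Figure D3:**
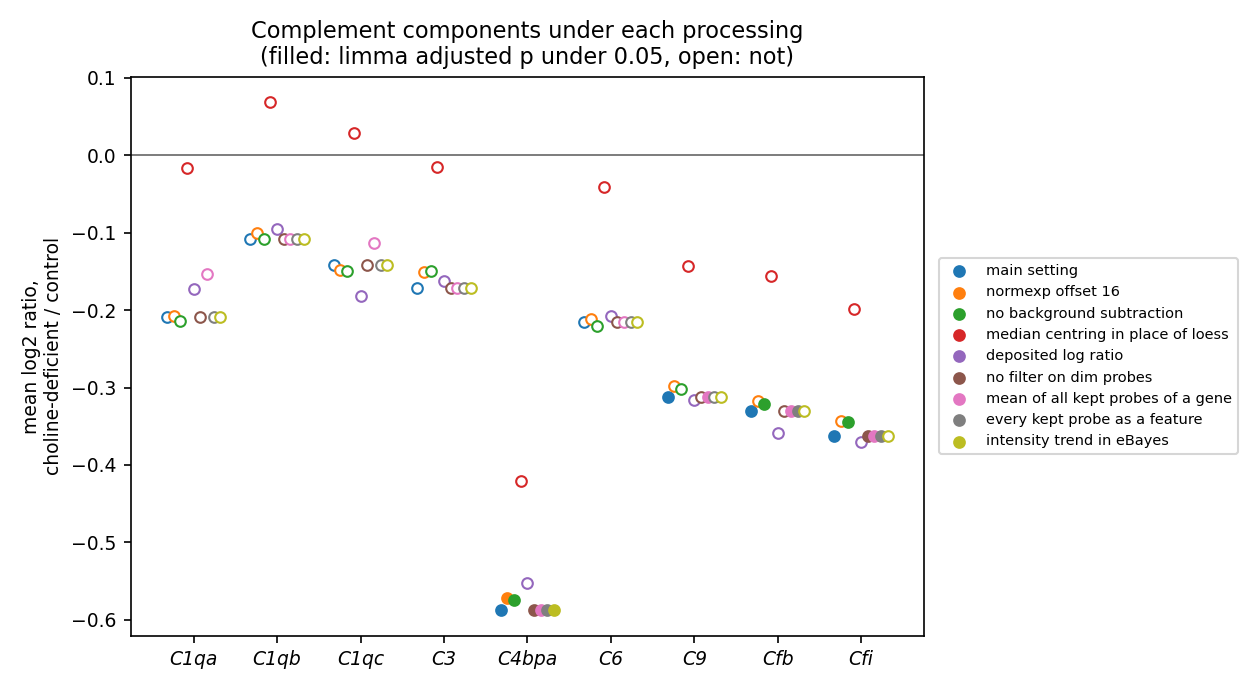
Mean log2 ratio of choline-deficient over control (vertical axis) of each gene under the setting used in the text and under 8 alternatives, filled where the limma adjusted p was under 0.05. C4bpa is filled in 7 of 9 settings, and the points of median centring lie above those of the other settings in every gene.

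The comparison of macrophage with hepatocyte products was made within each array. The mean log2 ratio of the C1q chains was -0.17 on array 1 and -0.13 on array 2 (mean -0.15 ± 0.03, SD, n = 2). The mean of the hepatocyte-made components was -0.26 and -0.40 (mean -0.33 ± 0.10, SD, n = 2). The C1q chains thus stood 0.09 and 0.26 above the hepatocyte-made components, a difference of 0.18 ± 0.12 (SD, n = 2) with the same sign on both arrays. The genes were listed with earlier results of these data known, so this difference is a description. No test of it is given, since the smallest two-sided p that 2 arrays allow by exact sign flips is 0.5. A C1q chain that missed the threshold is therefore not shown to differ from a hepatocyte-made component that passed it. The ranges touch: C1qa (-0.21) lay between C6 (-0.22) and C3 (-0.17). The difference holds for the components listed, of which C4bpa (-0.59) was the lowest. The 33 further complement genes read below had a median of -0.14, against -0.14 for the C1q chains.

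Over all 9 genes the median log2 ratio was -0.22, with -0.14 for the C1q chains and -0.32 for the hepatocyte-made components, against 0.00 for all genes tested. On both arrays 7 of the 9 (77.78%) were below 0, against 27.02% of all genes and 34.4% of genes at least as bright as C6. C1qa and C1qc, counted among the 7, are dimmer than C6 and do not belong to that brighter set.

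**Figure D4:**
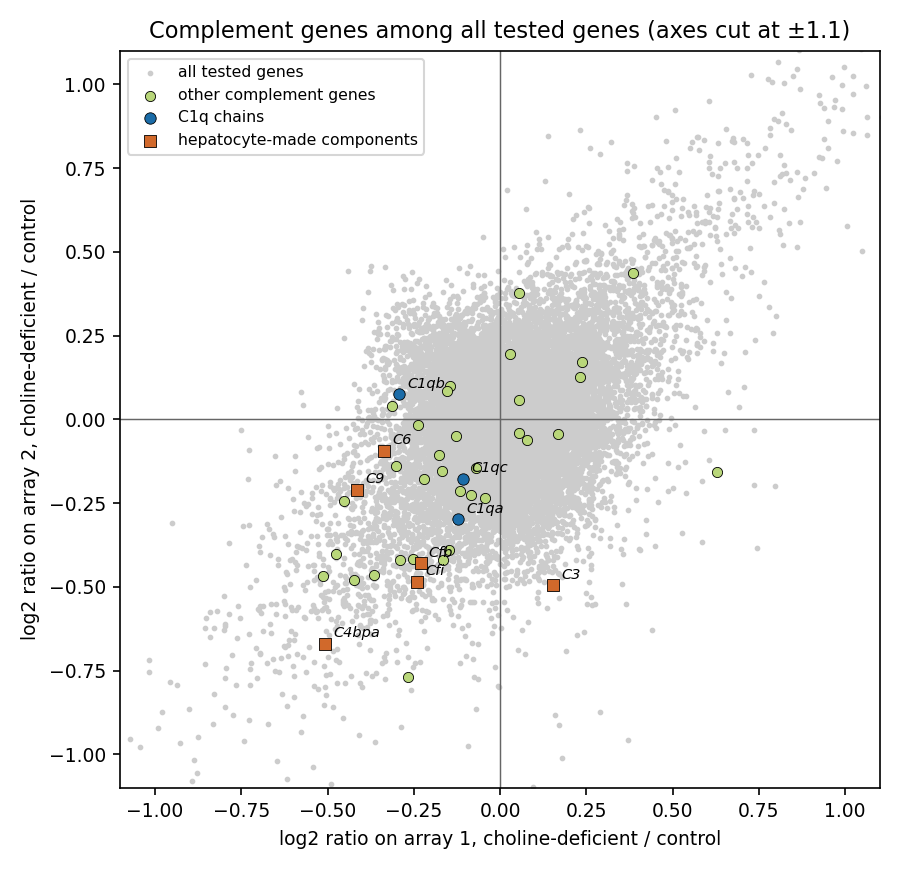
Log2 ratio of choline-deficient over control on array 2 (vertical axis) against array 1 (horizontal axis) for all 18196 genes, with the C1q chains, the hepatocyte-made components and the other complement genes marked, and both axes cut at 1.1. Of the 9 genes, 7 lie left of and below 0, and C3 and C1qb lie where the arrays disagree in sign.

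The rest of the complement system was read from lists by role, also chosen with earlier results known. Of 33 further complement genes tested, 8 fell, 1 rose and 24 did not pass, with a median log2 ratio of -0.14. Together with the 9 genes above, 12 of 42 fell and 1 rose (median -0.16). Beside these counts and those by role, 4.25% of all genes were called lower and 4.37% higher. Among genes at least as bright as C6 the shares were 12.6% lower and 5% higher.

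Of the proteins that start the classical and lectin pathways, 4 of 12 fell and none rose (median -0.17). These 4 were the mannose-binding lectins Mbl1 (ratios -0.47 and -0.40, mean -0.44 ± 0.05, limma adjusted p = 0.001412) and Mbl2 (mean -0.45 ± 0.04), the protease Masp1 (-0.42 ± 0.07) and the ficolin Fcn1 (-0.33 ± 0.12; SD, n = 2 throughout). The result for Masp1 rests on its brightest probe, since the other 3 had means of -0.17 to -0.01. The 8 that did not pass were C1r, C1s, C2 and C4a, which act next to C1q, and Masp2 (-0.09), Colec10 (0.06), Colec11 (0.01) and Fcnb (0.20) of the lectin pathway, which recognises sugars.

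In the alternative and terminal pathways 2 of 6 fell and none rose (median -0.19). Cfd, the protease that cuts factor B, fell by 0.49 ± 0.03 on the log2 scale (limma adjusted p = 2.914e-04), and C5, from which the terminal pathway starts, fell by 0.35 ± 0.09 (limma adjusted p = 0.014). The other C5 probes had means of -0.52 and -0.39. C8g (-0.22 ± 0.12, limma adjusted p = 0.219) and C8a (-0.16 ± 0.01, limma adjusted p = 0.481), subunits of the component that sits between C6 and C9 in the pore, did not pass. C7 was not kept by the filter.

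Of the inhibitors 2 of 9 fell and none rose (median -0.14). C4bpb, the beta chain that joins C4bpa in C4b-binding protein, had log2 ratios of -0.45 and -0.24 (mean -0.35 ± 0.15, SD, n = 2; limma adjusted p = 0.01735). Vtn, the vitronectin that blocks pore insertion, had -0.27 and -0.77 (mean -0.52, limma adjusted p = 2.385e-04), with the larger change on array 2. Serping1, the inhibitor of the C1 proteases, had a mean of -0.29 ± 0.18 and did not pass (limma adjusted p = 0.06236). Clu, or clusterin, which binds the terminal complex, stood at 0.18 ± 0.07 and did not pass either (limma adjusted p = 0.3945). Cd55 was not kept by the filter.

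Of the receptors 1 of 6 rose and none fell (median 0.14), and 3 of the 6 had the same sign on both arrays. C5ar1, the receptor of the inflammatory peptide C5a on myeloid cells, had log2 ratios of 0.38 and 0.44 (mean 0.41 ± 0.04, SD, n = 2; limma adjusted p = 0.003268). Itgb2, the beta chain of complement receptor 3, had ratios of 0.63 and -0.16 and did not pass (limma adjusted p = 0.248). C1qbp, a protein named for binding C1q, had a mean of 0.22 ± 0.23 (limma adjusted p = 0.252), and Cd93 one of 0.06 (limma adjusted p = 0.914). C5ar2 (-0.02) and Vsig4 (0.01) had opposite signs on the arrays, as Itgb2 did. C3ar1, Itgam and Cr2 were not kept by the filter. Under the authors' deposited ratio and under median centring none of these 33 genes passed.

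**Figure D5:**
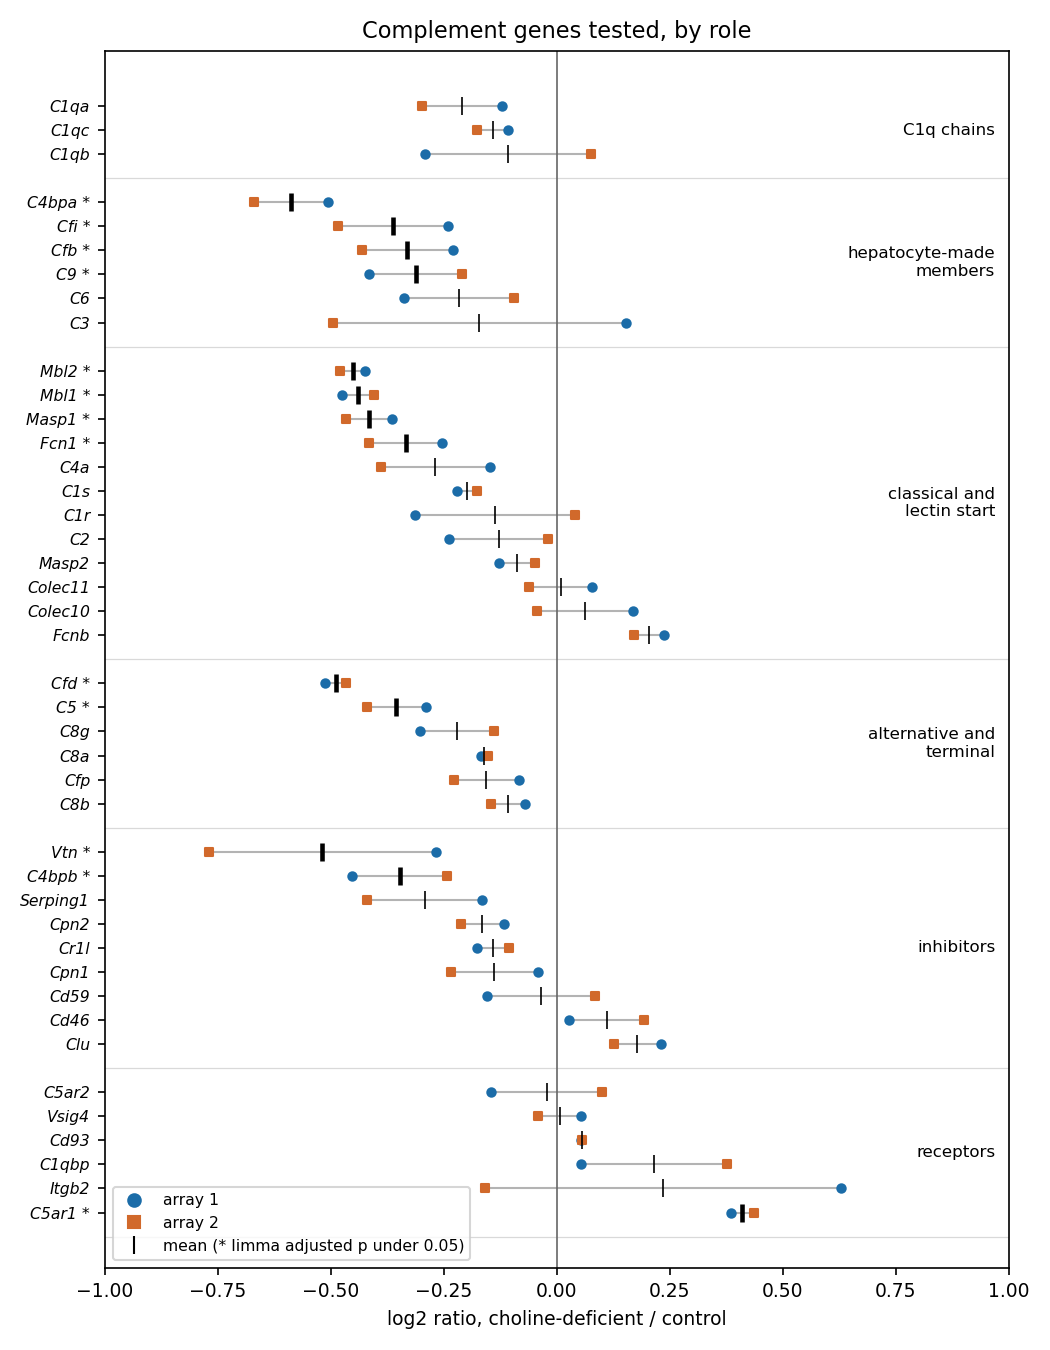
Log2 ratio of choline-deficient over control (horizontal axis) of each of the 42 complement genes tested, by role, with circles for array 1, squares for array 2 and a tick for the mean, thick and starred where the limma adjusted p was under 0.05. Starred genes stand left of 0 in every role but the C1q chains, which have none, and the receptors, where C5ar1 stands right of it.

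Cell-type markers were read beside both groups, because in bulk liver fewer cells of a type and less RNA per cell cannot be told apart. For the C1q chains the list was that of Kupffer cells and macrophages: 5 of 20 markers rose, 1 fell and 14 did not pass (median 0.11). Of all genes tested, 4.37% were called higher and 4.25% lower, shares that stand beside every list of markers. Gpnmb (mean 1.55 ± 0.33, limma adjusted p = 3.604e-19), Trem2 (0.93 ± 0.01), Marco (0.91 ± 0.13) and Lyz2 (0.69 ± 0.24; SD, n = 2 throughout) rose, and Cd14 fell by 0.41 on the log2 scale. Tyrobp also rose by its brightest probe (0.32 ± 0.23, limma adjusted p = 0.0336), whereas its other probe averaged 0.003. The other Cd14 probe averaged -0.24. Of the defining markers, Cd68 (0.16 ± 0.14), Csf1r (0.12), Cd163 (-0.06 ± 0.11) and Clec4f of Kupffer cells (-0.29 ± 0.23, limma adjusted p = 0.0627) did not pass. The summed log2 level of the list was 15.74 and 15.79 in choline-deficient liver, against 15.75 and 15.71 in control liver, where the diets overlap. Such a sum is weighted toward the brightest probes of a list. Here the brightest was that of Clec4f, with mean levels of 14.09 in choline-deficient and 14.39 in control liver. One macrophage marker, Vsig4, is also in the receptor list above. The C1q chains thus had ratios below 0 on average (with median centring C1qb and C1qc stood above 0) beside a macrophage list with a median above 0, and the part of macrophage number in either was not tested.

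All 8 hepatocyte markers of the labelled tissue were kept by the filter. Apoa1 rose (0.40 ± 0.24, limma adjusted p = 0.005357), Alb, which encodes albumin, fell (mean -0.31 ± 0.23, limma adjusted p = 0.04215), and the other 6 did not pass (median -0.14). The summed log2 level of the list was 19.34 and 19.00 in choline-deficient liver, against 19.09 and 19.50 in control liver. It was thus higher in choline-deficient liver on array 1 and lower on array 2, with list medians of 0.24 and -0.43, whereas the hepatocyte-made components were below 0 on both arrays in their mean. Array 2 was also the one with the lower ratio for C3, C4bpa, Cfb and Cfi, and the part of this shift between arrays in those ratios was not tested.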

How the data were processed

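Liver RNA of rats on either diet was compared on 2 two-colour arrays with exchanged dyes. The deposited scanner files hold intensity values of spot and background for each dye, from Agilent Feature Extraction 9.5.3.1 per the file headers (9.5 per the submitters' processing notes). The log10 ratio of Cy5 to Cy3 that the authors deposited follows background subtraction with detrending and a lowess dye correction, per the file headers. Each deposited p-value comes from an error model within 1 array, per the file headers. The series table repeats these ratios and was not used.

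With limma 3.58.1 in R 4.3.3, signals were corrected by normexp (offset 50, which shrinks ratios of dim spots) and log2 ratios by loess on each array, control spots having weight 0. Outlier spots were left out (174 and 151 gene spots), spots of a probe averaged and ratios turned to choline-deficient over control. The filter on dim probes asked that at least one diet be well above background on both arrays (22367 probes), and the brightest of these probes represented a gene. The fit against 0 (lmFit, eBayes; 1 residual and 63.25 prior degrees of freedom) was adjusted by Benjamini-Hochberg over 18196 genes at a threshold of 0.05. The prior outweighs the residual, so the spread behind a p-value came mostly from all genes together. The arrays correlated with r = 0.549 across genes, which are not independent. Levels per channel follow loess and Aquantile. In simulated data for this comparison over 18196 genes, 34% of genes changed 1.3-fold and 100% of those changed 1.5-fold were called, as were 21 of 17996 unchanged genes. These shares describe the simulated data only. The falls of Cfi (1.286-fold), Cfb (1.257-fold) and C9 (1.242-fold) are smaller than the smallest change simulated.

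The members and lists were chosen with earlier results of these data known. Some complement inhibitors are not reported here. Named were all members, further complement genes that passed or, in lists with fewer than 4 of these, up to 4 with the largest ratios, and up to 4 that passed in each other list, with Cd68, Csf1r, Cd163 and Clec4f added. Cd14, Tyrobp, Hp, Il6st, C5ar2, Vsig4, the start genes that did not pass and the probes without a gene symbol were named outside this rule, after their values were seen. Alternatives changed the offset, background correction, normalization, source of the ratio, filter, choice of probe and variance prior, or left out an array.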

Additional observations from a re-analysis of the deposited data

How the results depend on the processing

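Of the 9 genes, 4 were called lower. This count was 1 with a normexp offset of 16, 0 with median centring and 0 with the deposited log ratio. It was 2 with no filter on dim probes and 1 with an intensity trend in the variance prior. With that trend the limma adjusted p was 0.219 for Cfi, 0.123 for Cfb, 0.188 for C9 and 0.003 for C4bpa. Genes at least as bright as C6 had a median SD between arrays of 0.1155, against 0.0957 for dimmer genes. The cause of these shifts in the count was not tested. Calls over all genes, 1568 in the text's setting, were 1190 with the offset of 16, 1223 of 33706 genes with no filter and 1833 with the intensity trend, where they rose as those of the 9 genes fell. The count of the 9 genes called lower was 3 with no background subtraction, 4 with the mean of all kept probes and 3 with every probe as a feature. Over all genes, 795 were higher and 773 lower, and with median centring and with the deposited ratio these counts were 0 and 0, where 19 and 2122 genes had an unadjusted p under 0.05 in limma (0 and 3 of the 9). Of the 33 further complement genes, 1 was called higher and 8 lower. With median centring and with the deposited ratio 0 were higher and 0 lower, and with an offset of 16, 5 were lower. C4bpa had -0.42 with median centring (limma adjusted p = 1) and -0.55 with the deposited ratio (limma adjusted p = 0.306). The C1q chains stood above the hepatocyte-made components by 0.18 in the setting of the text, by 0.16 to 0.20 in the 6 other settings run and by 0.09 to 0.26 with either array left out, values with no test. Leaving out array 1 turns C1qb to 0.07, and leaving out array 2 turns C3 to 0.15. None of the 4 called members changed sign in any setting run for them. The log2 ratio already pairs the diets within each array, so the fit against 0 is a paired one. It leaves a single group of ratios and no second group to block by replicate number.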

Other observations

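The acute phase list holds transcripts that hepatocytes switch in inflammation, some made beside complement, together with regulators and cytokines such as Il1b. Genes of this list were called in both directions: 3 of 24 rose, 8 fell and 13 did not pass (median -0.22), beside 4.37% of all genes called higher and 4.25% lower. Among genes at least as bright as C6, a set to which only part of this list belongs, the shares were 5% higher and 12.6% lower. The 8 that fell include Hp, whose arrays had opposite signs (0.16 and -0.88), and Il6st, whose representing probe averaged -0.36 and its other probes 0.04 and 0.07, both named after their values were seen. Cebpd, a C/EBP factor of the acute phase, rose (ratios 0.84 and 0.72, mean 0.78 ± 0.09, SD, n = 2; limma adjusted p = 1.52e-08), as did the cytokine Il1b (mean 0.54, limma adjusted p = 6.64e-05). Fgb, the fibrinogen beta chain, fell by 0.67 ± 0.31 on the log2 scale (limma adjusted p = 1.224e-06), and Saa4, a constitutive serum amyloid A, fell by 0.60 ± 0.27 (limma adjusted p = 1.456e-05).

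Of the remaining cell-type lists, that of class II antigen presentation had 2 of 3 genes higher, Cd74 (mean 0.58 ± 0.15) and RT1-Da (0.47 ± 0.10). The stellate cell list had 2 of 6 higher, the collagens Col1a1 (0.53 ± 0.02 by its brightest probe, with other probes at -0.06 and 0.01) and Col3a1 (0.30 ± 0.01). The endothelial list had 1 of 6 lower, Kdr, a receptor of vascular growth factor (-0.46 ± 0.17), and the neutrophil list 1 of 3 higher, S100a8 (0.32 ± 0.16; SD, n = 2 throughout). No cholangiocyte or lymphocyte marker passed (3 genes each). All these counts of few genes stand beside 4.37% of all genes called higher and 4.25% lower.

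The array holds complement probes that carry no gene symbol, picked here after their values were seen. A probe described as the C3 precursor had log2 ratios of -0.19 and -0.20 (limma adjusted p = 0.322), without the opposite signs of the C3 probe above (0.15 and -0.50). A probe described as a C4 gene had -0.24 and -0.39 (limma adjusted p = 0.0367), while a second probe of the same name averaged -0.09.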
